A study of Mus musculus with 21 samples.

Results

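A list of 34 imprinted genes was followed in sorted mouse male germ cells with and without Tex15. The members were chosen by name, and all 34 were found among the 24495 gene rows of the count tables. In somatic tissues 21 of them are expressed from the paternal copy and 13 from the maternal copy. Another grouping takes the 7 that lie in domains whose control region is methylated in sperm (H19, Igf2, Dlk1, Meg3, Rian, Mirg and Rasgrf1). The counts add reads of both parental copies, so allelic expression itself was not measured here.

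The cells were male germ cells purified by flow sorting on the green fluorescence of an Oct4-GFP reporter, from animals of mixed strain background born to crosses between Tex15 heterozygotes. Heterozygous cells (HT, Tex15+/-) and knockout cells (KO, Tex15-/-) were taken before birth, on embryonic day 16.5 (E16.5) or 18.5 (E18.5), and from newborn animals. Wild-type cells (WT) came from newborns alone. Sample labels put the newborns at 2.5 days (D2.5), where the design text has day 2. Each of the 7 groups held 3 libraries, described as biological triplicates, and no source used here gives the number of animals behind a library, their litters or the nature of the Tex15 mutation. At E16.5 and E18.5 the controls were HT cells and therefore carried a mutant Tex15 allele.

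Imprinted genes are expressed mainly from the copy inherited from a given parent because DNA methylation of a nearby control region was set differently in egg and sperm. Germ cells erase these marks early in fetal life and set them anew. In the male line the new methylation is laid down in fetal prospermatogonia, non-dividing cells of the stage sampled here before birth. DNA methyltransferases of the Dnmt3 family, with their cofactor Dnmt3l, lay it down. In males only a few control regions gain methylation, among them those of H19 and Igf2, of Dlk1 and Meg3, and of Rasgrf1, and that of Rasgrf1 is known to depend on the piRNA pathway, in which small RNAs guide methylation to transposons. Tex15 is known as a factor of that pathway in fetal germ cells and of recombination in meiosis.

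Several members are hosts of miRNAs, which makes their transcripts more than markers of an imprint. By position on the same strand, 7 of the 34 hosted annotated miRNA genes, and the Dlk1 domain held most of them, with 14 in Mirg, 3 in Rian and 2 in Meg3. Mature miRNAs of 4 hosts whose levels are described below (H19, Igf2, Mest and Mirg) are shown, from RefSeq (GRCm38.p6), with the seed, bases 2 to 8, in capitals. Within Mirg, miR-453 and miR-496a-5p share their seed. The gene counts measure the host transcript and not the mature miRNA.
H19 mmu-miR-675-5p (chr7:142577112-142577133, minus strand): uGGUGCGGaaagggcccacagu
Igf2 mmu-miR-483-3p (chr7:142654932-142654952, minus strand): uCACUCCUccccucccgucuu
Mest mmu-miR-335-5p (chr6:30741314-30741336, plus strand): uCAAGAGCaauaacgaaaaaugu
Mirg mmu-miR-453 (chr12:109735669-109735692, plus strand): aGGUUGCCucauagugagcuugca
Mirg mmu-miR-496a-5p (chr12:109739132-109739152, plus strand): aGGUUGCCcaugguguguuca

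Promoters of imprinted genes are often rich in CpG, the dinucleotide at which DNA is methylated. RefSeq promoter windows of 300 bases (250 before the start site and 50 after it, GRCm38.p6) were found for 28 of the 34 members. Where a gene had several windows, the one with most CpG was counted. The median CpG number of the members was 16, with 78.6% holding at least 10, against a median of 8 and 45.8% over the 27025 genes with a window. The median was 24.5 in the 10 maternally expressed members with a window and 12.5 in the 18 paternally expressed ones. The windows of Dlk1 and Meg3 (its upstream window), which flank the same control region and whose transcripts moved together with age, and of Peg3, which moved the other way, are printed 5′ to 3′ with CpG in capitals. They hold 9, 13 and 13 CpG.
Dlk1 (chr12:109452573-109452872, plus strand): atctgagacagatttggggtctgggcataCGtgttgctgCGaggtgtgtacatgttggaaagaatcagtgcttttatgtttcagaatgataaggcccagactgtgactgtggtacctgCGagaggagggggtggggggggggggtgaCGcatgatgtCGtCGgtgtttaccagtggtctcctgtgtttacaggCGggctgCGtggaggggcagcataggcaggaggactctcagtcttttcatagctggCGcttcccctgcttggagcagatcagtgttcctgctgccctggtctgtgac
Meg3 (chr12:109540746-109541045, plus strand): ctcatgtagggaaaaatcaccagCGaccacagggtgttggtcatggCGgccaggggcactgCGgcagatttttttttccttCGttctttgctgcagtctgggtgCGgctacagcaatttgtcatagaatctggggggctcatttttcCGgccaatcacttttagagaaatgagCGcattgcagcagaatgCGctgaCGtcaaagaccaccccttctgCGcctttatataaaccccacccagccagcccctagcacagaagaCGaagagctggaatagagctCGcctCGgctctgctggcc
Peg3 (chr7:6730370-6730669, minus strand): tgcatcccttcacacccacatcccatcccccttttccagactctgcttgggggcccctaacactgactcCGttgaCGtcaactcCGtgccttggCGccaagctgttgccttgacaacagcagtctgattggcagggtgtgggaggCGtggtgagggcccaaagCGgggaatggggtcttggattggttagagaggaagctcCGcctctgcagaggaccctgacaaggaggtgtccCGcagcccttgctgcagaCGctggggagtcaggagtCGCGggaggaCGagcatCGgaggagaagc
The cAMP response element TGACGTCA, a palindrome that reads the same on both strands, occurred in windows of 3 of the 28 members (10.7%), Meg3, Peg3 and Usp29, against 2.03% of all genes. The windows of Peg3 and Usp29 overlap on opposite strands, so these 2 matches are not separate. The match is a description of the sequence.

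Libraries held 6063630 to 11884100 gene counts, lowest at D2.5, and levels are given as CPM, counts relative to each library's total after TMM scaling over all 21 libraries. A count of 3 corresponded to 0.224 to 0.557 CPM. Replicate spread was widest at D2.5, where the biological coefficient of variation was 55.4%, against 37.3% at E16.5 and 17.9% at E18.5. The first HT library at E16.5 stood apart: it lay at 131 on a principal component that held 72.3% of the variance at that age, with the other 5 libraries between -83.6 and 10.6. In that library 13 of the 30 members tested at E16.5 differed by more than 1 log2 unit from the mean of the other HT libraries (43.3%, against 24.7% of all genes tested), Grb10 being at 52.5 CPM where the others had 326 and 631. The third KO library at D2.5 also stood apart on its age's leading component. Values with and without these libraries are given for some of the members whose call changes.

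Tex15 was checked before the imprinted genes. At E16.5 its mean was 980 CPM in HT (SD 80.9, n = 3) against 3.41 CPM in KO (SD 0.437, n = 3). On embryonic day 18.5 the means were 779 CPM (SD 36.5, n = 3) against 3.01 CPM (SD 0.202, n = 3), and in newborns 1872 CPM (SD 175, n = 3) against 20.9 CPM (SD 4.37, n = 3). The KO and HT libraries did not overlap at any age. The WT mean was 4038 CPM (SD 433, n = 3), above every HT library.

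Markers of the sorted cells and of their neighbours were read as sums over fixed lists. All 12 germ cell markers were present in every group, and their sum ranged from 2775 to 8078 CPM per library. Pou5f1 (Oct4), the gene behind the sorting reporter, had group means of 56.1 to 136 CPM before birth and 1.34 to 4.6 CPM at D2.5. The 12 Sertoli cell markers summed to 144 to 183 CPM before birth and 213 to 567 CPM at D2.5. From E18.5 to D2.5, 2 of the 12 passed edgeR's test as higher and 1 as lower in HT cells (21.4% and 33.4% of all genes). In KO cells 6 passed as higher and 1 as lower (21.1% and 34.2%). Amh, a defining product of that cell type and 1 of the 12, stayed at means of 0.286 to 2.37 CPM. The 12 stromal markers summed to 356 to 425 CPM in E18.5 HT, 379 to 589 CPM in D2.5 HT and 586 to 1055 CPM in D2.5 KO. The 10 endothelial markers summed to 202 to 228 CPM in E18.5 HT and 507 to 725 CPM in D2.5 HT, of which Erg alone made up 461 CPM on average. The 10 Leydig cell markers summed to 42.9 to 121 CPM over all libraries, with Insl3 at 0 at D2.5, and the 4 hemoglobin genes were at 0 everywhere. The 14 macrophage and blood markers summed to 49.9 to 56.4 CPM in E18.5 HT and 86.8 to 106 CPM in E18.5 KO. In bulk samples a smaller share of a cell type and less RNA per cell cannot be told apart, and the part of these cells in the member values below was not tested.

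**Figure D1:**
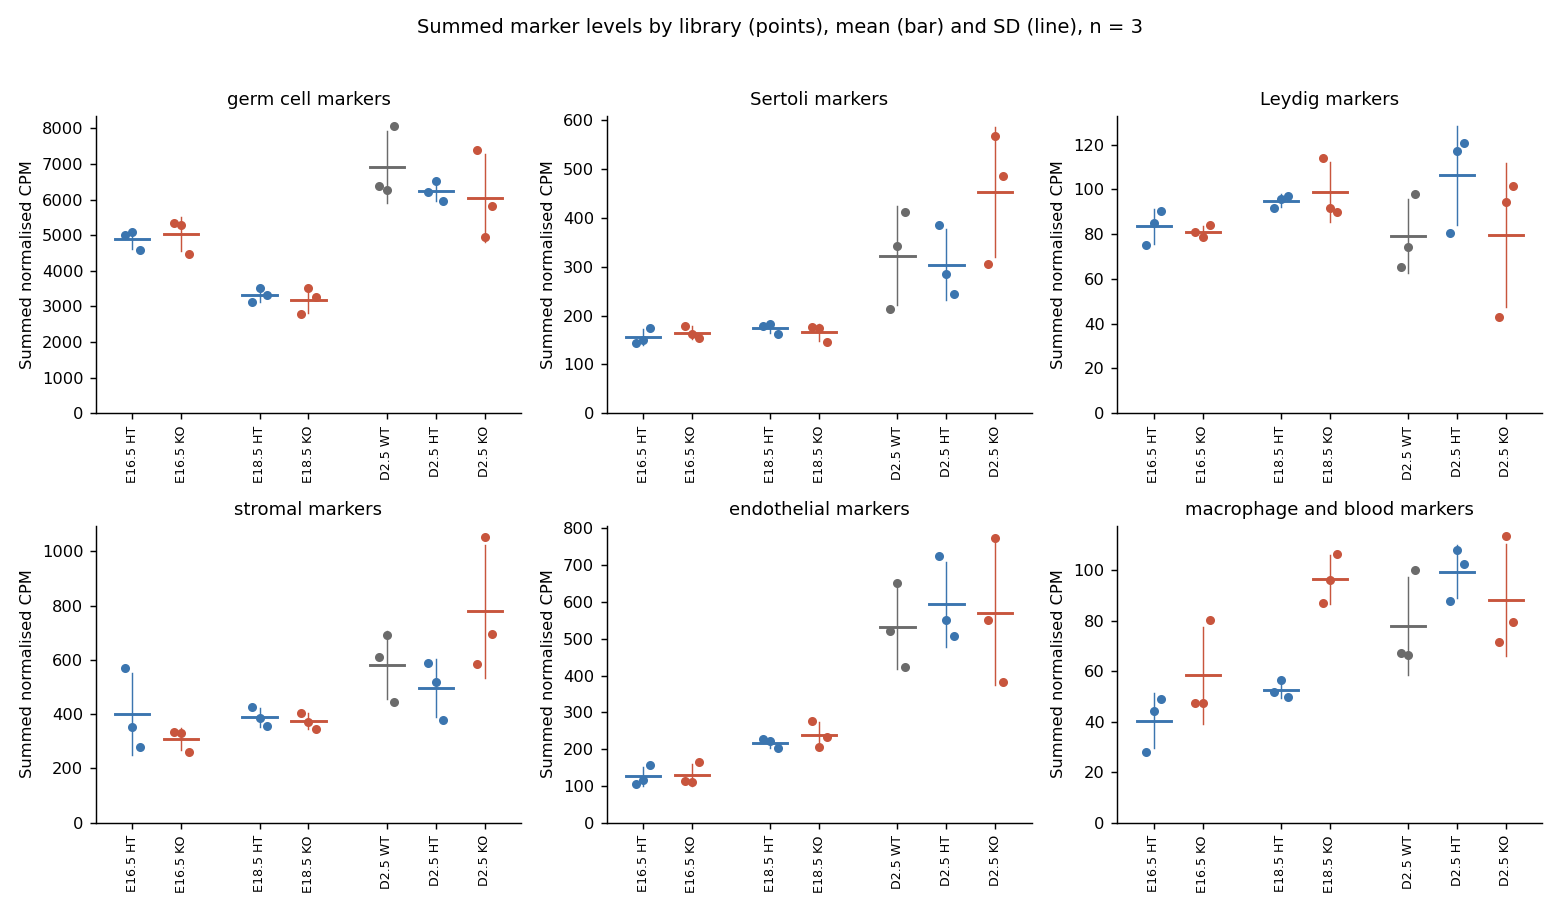
Summed CPM of the marker lists (vertical axes, from 0) in each library (points), with the group mean (bar) and SD (line) for the 7 groups of 3 libraries. Germ cell markers sum to at least 2775 CPM in every library, and the Sertoli and endothelial sums are higher in every D2.5 library than in every earlier one.

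Expressed per kilobase of exon (GENCODE vM21 models, which may differ from those the authors counted), members ranked differently at each age. Grb10, an adaptor that dampens insulin and growth factor signalling, led at E18.5 with 202 CPM per kb in HT cells (SD 18.4, n = 3), well above Peg10, a gene derived from a retrotransposon, at 43.7 (SD 3.899, n = 3). Igf2, Igf2r, Cdkn1c and Mest followed between 19.1 and 23.9 CPM per kb, close to each other relative to their spread. At D2.5 HT cells were led by Mest, a hydrolase-like gene, at 108 CPM per kb (SD 22.3, n = 3) and Igf2, a fetal growth factor, at 92.6 (SD 10.1, n = 3), which did not differ beyond their spread. The zinc finger gene Plagl1 at 70.3 (SD 7.98, n = 3) and Grb10 at 64.3 (SD 5.71, n = 3) came next. At E16.5 HT Grb10 again ranked highest at 65.6 CPM per kb, with an SD of 56.4 (n = 3) that spans most of the order. Of the 34 members, 7 had a mean of at least 100 CPM in E18.5 HT cells and 9 in D2.5 HT cells, and 4 and 6 of them were under 1 CPM.

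A few members were close to silent or could not be read. Snrpn, a splicing protein gene of the Prader-Willi region, had 0 to 5 counts in every library and 0 in all 9 D2.5 libraries. It shares exons on the same strand with Snurf, which had 0 counts everywhere, so reads common to both may not have been assigned to either gene and the 0 is not read as absence of the transcript. In the same region Magel2 had at most 14 counts and Peg12 at most 16 in any library, and the filter on low counts removed these 3 from every main comparison. In fits that left out 1 library the filter can keep more members, and Peg12 was called between E18.5 and D2.5 in 16 of 18 such fits in KO cells and 1 of 18 in HT cells, and Magel2 in 1 of 18 in each. The filter also removed Airn, the antisense transcript at Igf2r, at E16.5 and E18.5, and Mkrn3, Phlda2 and Kcnq1 at D2.5. Thus 30 of the 34 members were tested between genotypes at either embryonic age, 28 at D2.5, and 31 in the fit across ages.

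Loss of Tex15 came with no change in any imprinted member that passed the test, at any of the 3 ages. With edgeR's quasi-likelihood test and Benjamini-Hochberg adjustment over all genes, 0 members passed an adjusted p of 0.05 in KO against HT at E16.5, E18.5 or D2.5, in KO against WT or in HT against WT. The same test called 0.00618% of all genes tested at E16.5 (Tex15 alone), 2.14% at E18.5, 0.153% at D2.5, 0.216% for KO against WT and 0.00696% for HT against WT (Tex15 alone). DESeq2 and limma-voom also called 0 members in each of these 5 comparisons. With shares this small, a count of 0 members is close to the background in each of these comparisons, at E18.5 as well. At E18.5, where 389 genes were called and replicate spread was smallest, the 95% interval of the KO effect was narrower than 1 log2 unit to either side for all 30 members tested.

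At an unadjusted p under 0.05, edgeR gave 2 of 30 members at E16.5 (1.17% of all genes), 2 of 30 at E18.5 (8.12%), 4 of 28 at D2.5 in KO against HT (7.21%), 4 of 28 in KO against WT (7.77%) and 0 of 28 in HT against WT (3.4%). The median log2 fold change of the members in KO against HT was 0.07 in E16.5 cells, -0.01 in E18.5 cells and 0.19 in D2.5 cells, with -0.01 over all genes tested at E16.5 and a median within 0.01 of 0 at E18.5 and D2.5. The median size of the change, without its sign, was 0.29, 0.11 and 0.39 for members and 0.23, 0.16 and 0.38 for all genes. At D2.5 that size was 0.55 for members and 0.38 for all genes in KO against WT, and 0.25 and 0.32 in HT against WT. KO and HT libraries did not overlap for 4 members at E16.5 (background 6.23%), 0 at E18.5 (13.8%) and 4 at D2.5 (11.7%), and KO and WT libraries for 5 members (12.6%). HT and WT libraries did not overlap for 3 members, Peg3 higher and Cdkn1c and Rian lower in HT (8.71%).

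**Figure D2:**
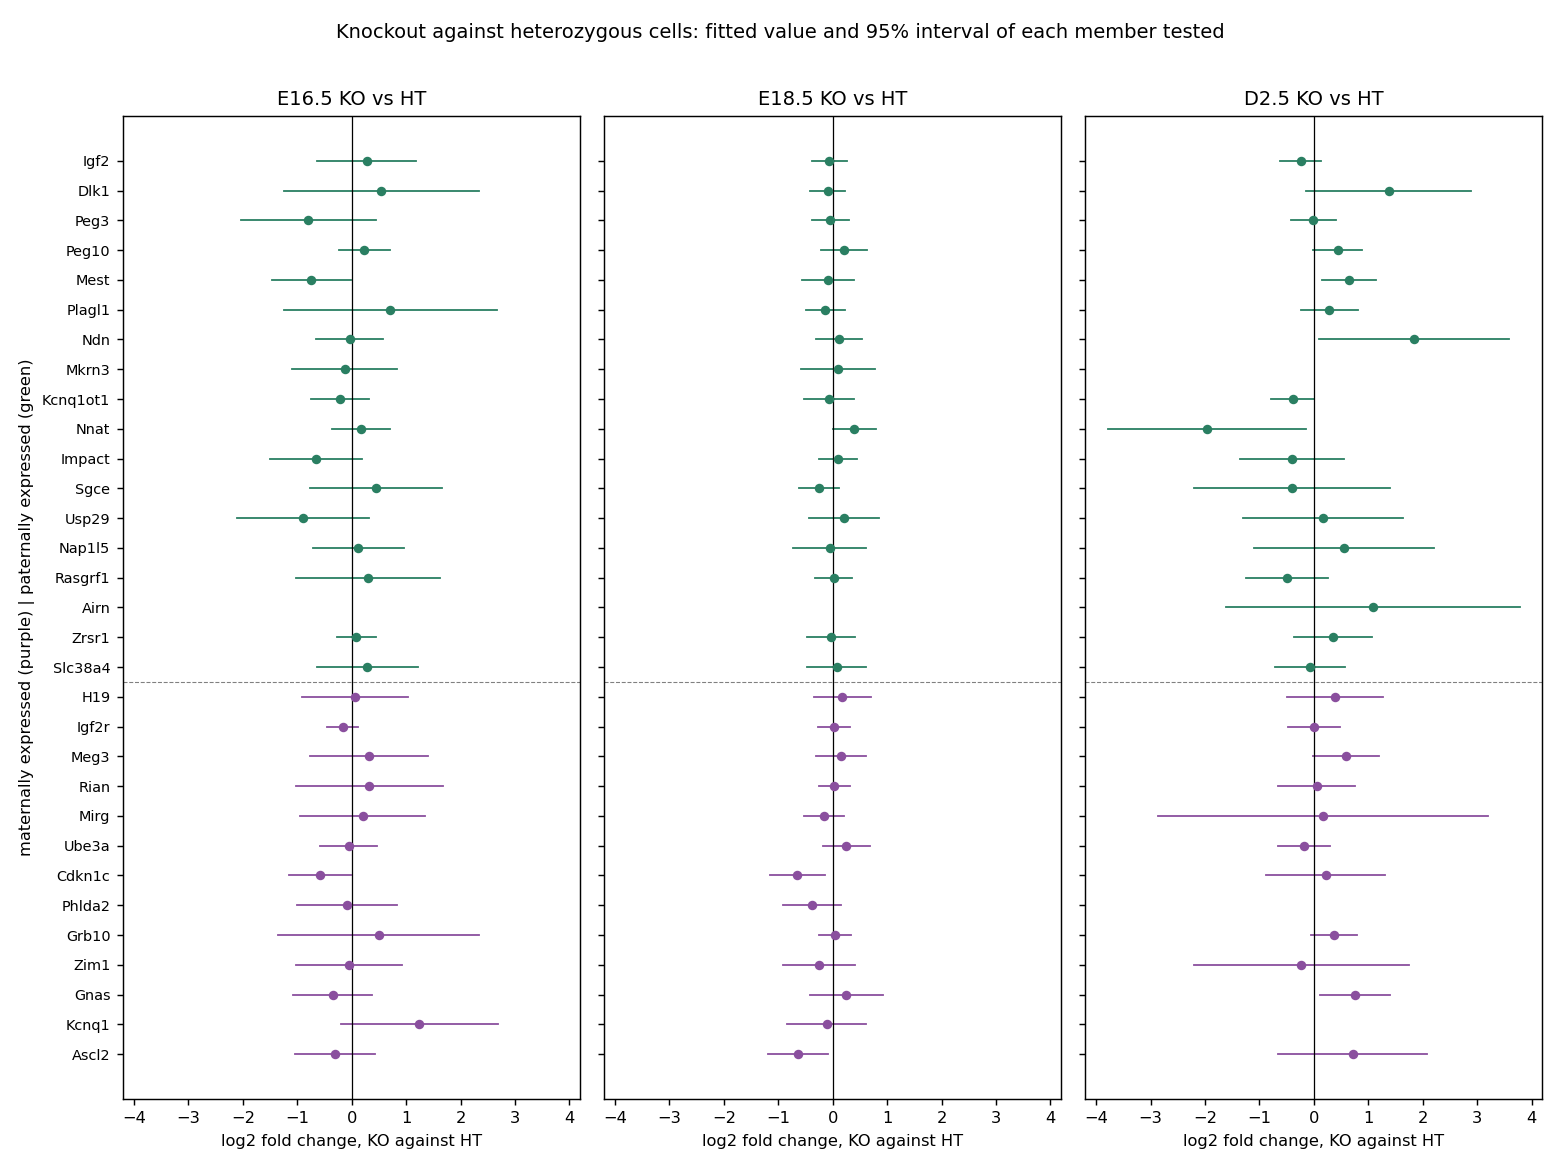
Log2 fold change of KO against HT (horizontal axes) with its 95% interval for each member tested, with 1 panel per age; paternally expressed members are green and maternally expressed ones purple. Intervals are narrowest at E18.5, and all 30 reach less than 1 log2 unit to either side of the fitted value, and widest for low genes such as Mirg and Airn at D2.5.

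The H19 and Igf2 domain, a textbook case of a control region methylated on the paternal copy, had overlapping libraries in both genotypes at every age. H19, a maternally expressed non-coding RNA, stood at 20.6, 13.05 and 14.5 CPM in the E18.5 HT libraries and 21.5, 21.2 and 11.6 CPM in the KO libraries. Igf2, the paternally expressed growth factor beside it, stood at 138, 110 and 129 CPM in HT and 107, 132 and 122 CPM in KO at that age. At E16.5 H19 was at 44.8, 51.1 and 24.7 CPM in HT and 52.3, 53.1 and 19.9 CPM in KO (0.06, SE 0.41), and Igf2 at 41.9, 98.6 and 122 CPM and 92.1, 95.2 and 130 CPM (0.27, SE 0.39). The E18.5 groups overlapped for both genes, with log2 fold changes of 0.18 for H19 (SE 0.25, 95% interval -0.35 to 0.71) and -0.06 for Igf2 (SE 0.15, 95% interval -0.38 to 0.26). At D2.5 H19 was at 42.0, 22.3 and 23.8 CPM in HT cells, 48.7, 37.3 and 29.7 CPM in KO cells and 37.0, 15.1 and 37.9 CPM in WT cells. Igf2 at D2.5 was at 546, 465 and 447 CPM in HT cells, 408, 319 and 505 CPM in KO cells and 480, 408 and 492 CPM in WT cells. All 3 groups overlapped for both genes, and the KO against HT values were 0.39 for H19 (SE 0.43) and -0.24 for Igf2 (SE 0.18).

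The Dlk1 and Meg3 domain pairs the paternally expressed Notch-like ligand gene Dlk1 with the maternally expressed non-coding transcripts Meg3, Rian and Mirg. At E18.5 Dlk1 was at 57.2, 52.9 and 66.8 CPM in HT and 52.4, 59.4 and 53.8 CPM in KO libraries, and Meg3 at 212, 123 and 113 CPM and 191, 138 and 170 CPM. Rian, host of small nucleolar RNAs, was at 171, 159 and 155 CPM in HT and 173, 154 and 167 CPM in KO. Mirg, the transcript that carries most of the domain's miRNAs, was at 31.6, 34.1 and 41.8 CPM and 30.2, 36.0 and 30.1 CPM. Both genotypes overlapped for all of them, and the KO effects were -0.09 for Dlk1, 0.16 for Meg3, 0.03 for Rian and -0.16 for Mirg (SE 0.13 to 0.21). At E16.5 the KO effects of the same genes lay between 0.20 and 0.55 with SE of 0.46 to 0.76, and the lowest library for each was the HT library that stood apart (2.52 CPM for Dlk1 and 17.96 CPM for Rian). At D2.5 Dlk1 was at 4.72, 10.03 and 2.91 CPM in HT and 5.05, 25.8 and 15.3 CPM in KO, and its log2 fold change of 1.37 (SE 0.73) had an adjusted p of 0.734. Meg3 at D2.5 was at 86.3, 56.97 and 62.04 CPM in HT and 68.0, 128 and 114 CPM in KO, with a log2 fold change of 0.59 (SE 0.29, adjusted p = 0.701). KO libraries 2 and 3 were the high ones for both genes, and KO library 1 lay inside the HT range. In WT cells Dlk1 was at 10.9, 9.94 and 5.31 CPM and Meg3 at 64.1, 74.4 and 70.1 CPM (KO against WT 0.81 and 0.57). Rian did not follow them, at 41.6, 58.9 and 38.3 CPM in HT, 29.2, 57.9 and 57.3 CPM in KO and 90.8, 63.3 and 68.9 CPM in WT. Its KO libraries overlapped HT (0.05) and lay below every WT library (-0.63), and neither value passed. Mirg was at 0.727, 0 and 7.69 CPM in HT, 1.62, 5.94 and 2.03 CPM in KO and 4.92, 0 and 1.20 CPM in WT (0.16 against HT and 0.62 against WT). Stromal marker sums were higher in D2.5 KO than in D2.5 HT libraries, apart from an overlap of 1 library each, and their part in these values was not tested.

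Rasgrf1, a guanine nucleotide exchange factor whose control region is methylated in the male germ line, gave the lowest unadjusted p among the members in KO against WT. It was at 62.5, 141 and 79.7 CPM in WT, 34.3, 76.0 and 77.9 CPM in HT and 43.6, 37.5 and 53.8 CPM in KO libraries at D2.5. Every KO library lay under every WT library, and the HT libraries overlapped both. The log2 fold change of KO against WT was -1.07 (SE 0.36, 95% interval -1.82 to -0.32, adjusted p = 0.401), while the comparison with HT gave -0.49 (SE 0.36, adjusted p = 0.838). At E18.5 Rasgrf1 stood at 52.1, 42.6 and 40.3 CPM in HT and 45.9, 41.9 and 48.3 CPM in KO, a log2 fold change of 0.01 (SE 0.16, 95% interval -0.32 to 0.35). At E16.5 the values were 7.18, 27.3 and 41.1 CPM in HT and 27.6, 27.6 and 37.7 CPM in KO, where the low value is again the HT library that stood apart.

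Among the maternally methylated domains, Cdkn1c, a cell cycle inhibitor, had lower fitted values in KO cells at both embryonic ages. At E16.5 HT libraries had 38.5, 21.9 and 27.6 CPM and KO libraries 19.4, 18.9 and 20.2 CPM. At E18.5 HT libraries had 35.8, 39.9 and 41.5 CPM and KO libraries 36.8, 22.2 and 15.9 CPM. The groups did not overlap at E16.5, and KO library 1 lay within the HT range at E18.5. The log2 fold changes were -0.58 at E16.5 (SE 0.24, adjusted p = 0.976) and -0.65 at E18.5 (SE 0.24, adjusted p = 0.339). The highest E16.5 value was that of the HT library that stood apart, and without it the E16.5 value was -0.33 (SE 0.19). Without KO library 1 the E18.5 value was -1.03 with an adjusted p of 0.00641, so a single library decides that call. At D2.5 the value was 0.22 (SE 0.53), with HT at 12.4, 11.5 and 14.0 CPM and KO at 8.12, 17.6 and 18.4 CPM.

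Ascl2, a helix-loop-helix factor of the same chromosomal cluster, was at 11.2, 8.35 and 12.3 CPM in E18.5 HT and 9.17, 6.13 and 5.23 CPM in KO, with 1 KO library inside the HT range (-0.64, SE 0.25, adjusted p = 0.438). Kcnq1ot1, the antisense transcript whose promoter lies in the control region of that cluster, was at 145, 87.7 and 97.2 CPM in HT and 137, 78.8 and 99.2 CPM in KO at E18.5, with overlapping groups (-0.06, SE 0.21). It shares exons with Kcnq1 on the opposite strand. Since no source states that strand was used in counting, reads over the shared exons cannot be told apart.

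Of the remaining members, Mest had fitted values of opposite sign at the outer ages, neither of which passed. At E16.5 it was at 46.6, 22.9 and 23.3 CPM in HT and 17.9, 18 and 19.1 CPM in KO (-0.74, SE 0.31, adjusted p = 0.976), and at D2.5 at 342, 229 and 330 CPM in HT and 371, 647 and 405 CPM in KO (0.65, SE 0.24, adjusted p = 0.503). The KO libraries lay below all HT libraries at E16.5 and above all of them at D2.5. The highest E16.5 value was that of the HT library that stood apart, and without it the log2 fold change was -0.32 (SE 0.17). The D2.5 KO libraries overlapped the WT values of 242, 443 and 258 CPM. Mest exons overlap those of Copg2 on the other strand. Gnas, the stimulatory G protein subunit, was at 90.7, 108 and 56.2 CPM in D2.5 HT and 79.2, 172 and 180 CPM in KO, with KO library 1 inside the HT range (0.76, SE 0.31, adjusted p = 0.573). The KO against WT value of Gnas was 0.84 (SE 0.31, adjusted p = 0.46). Gnas exons overlap those of Nespas on the other strand.

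Ndn, a growth-restraining gene of the Prader-Willi region, and Nnat, a small membrane protein gene, had wide spreads at D2.5. Ndn was at 3.997, 4.558 and 11.1 CPM in HT and 18.6, 41.7 and 11.4 CPM in KO libraries (1.84, SE 0.84, adjusted p = 0.651), and WT libraries ran from 1.23 to 20.8 CPM. Nnat was at 4.18, 11.4 and 8.72 CPM in HT, 4.74, 9.02 and 4.97 CPM in WT and 1.26, 2.23 and 2.77 CPM in KO. Every KO library was below every HT and WT library for Nnat, with log2 fold changes of -1.96 against HT (SE 0.88, adjusted p = 0.633) and -1.57 against WT (SE 0.87, adjusted p = 0.723). Zrsr1, a splicing factor gene, was at 41.4, 56.8 and 44.9 CPM in HT, 45.5, 37.4 and 23.5 CPM in WT and 60.1, 62.9 and 61.2 CPM in KO at D2.5. Its KO libraries lay above all others, with 0.35 against HT (SE 0.34, adjusted p = 0.902) and 0.78 against WT (SE 0.35, adjusted p = 0.582). Zrsr1 exons overlap those of Commd1 on the other strand.

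For several abundant members the interval of the KO effect at E18.5 was narrow. Grb10 was at 993, 1143 and 969 CPM in E18.5 HT and 1130, 1101 and 946 CPM in KO (0.03, 95% interval -0.26 to 0.33). Igf2r, the receptor that clears Igf2, was at 205, 203 and 202 CPM and 192, 221 and 207 CPM (0.03, 95% interval -0.26 to 0.31). Peg3, a zinc finger gene of a cluster with Usp29 and Zim1, was at 84.9, 74.1 and 61.8 CPM and 78.8, 71.2 and 63.0 CPM (-0.05, 95% interval -0.39 to 0.29). Of the members not yet described, Peg10, Plagl1, Impact, Sgce, Usp29, Zim1, Nap1l5, Slc38a4, Mkrn3, Phlda2, Kcnq1 and Ube3a had KO effects between -0.37 and 0.25 at E18.5, and none passed at any age.

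The KO effect was also compared between ages in the fit of the 18 HT and KO libraries. The difference between E18.5 and E16.5 passed for 0 members by edgeR, DESeq2 and limma-voom (0% of all genes in edgeR), with 0 of 31 members at an unadjusted p under 0.05 (0.829% of all genes). The difference between D2.5 and E18.5 passed for 0 of 31 members by edgeR and limma-voom (0.0531% of all genes in edgeR), with 2 at an unadjusted p under 0.05 (10.4%). Those 2 were Nnat, at -2.36 (SE 0.57, adjusted p = 0.144), and Ndn, at 1.74 (SE 0.65, adjusted p = 0.35). For Nnat the HT and KO libraries at E18.5 were at 13.6, 16.0 and 18.5 CPM and 24.5, 18.3 and 20.6 CPM, overlapping, against the separated values at D2.5 given above. DESeq2 called the Nnat difference (adjusted p = 0.00297), and so did edgeR without the first D2.5 HT library (-2.67, adjusted p = 0.0444).

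Values differed far more between ages, whose tables were counted separately, than between genotypes, in the members as in all genes. Between E18.5 and D2.5, 17 of 31 members passed in HT cells, 7 higher and 10 lower. Of the 18 paternally expressed members tested 5 rose and 3 fell, with a median log2 fold change of 0.18, and of the 13 maternally expressed ones 2 rose and 7 fell, with a median of -1.13. Summed over members, the paternally expressed class went from 937 to 1113 CPM in E18.5 HT libraries to 2422 to 2641 CPM at D2.5, and the maternally expressed class from 1632 to 1808 CPM to 874 to 999 CPM, without overlap. Grb10 held most of the maternally expressed sum at E18.5, and without it that class had 663 to 780 CPM at E18.5 and 512 to 675 CPM at D2.5, which overlap. Without Peg10, its most abundant gene at E18.5, the paternally expressed class went from 675 to 808 CPM to 2286 to 2406 CPM. Peg10 itself did not rise (means 292 and 212 CPM), so leaving it out cannot show whether the rise was spread over the class. The paternally expressed members called higher went from means of 110 to 573 CPM (Kcnq1ot1), 126 to 486 CPM (Igf2), 34.7 to 378 CPM (Plagl1), 73.6 to 331 CPM (Peg3) and 53.1 to 301 CPM (Mest). Of the other paternally expressed members, the most abundant at E18.5 after Peg10 went both ways. Slc38a4 (means 78.3 to 68.1 CPM), Dlk1 (58.9 to 5.89 CPM) and Zrsr1 (52.5 to 47.7 CPM) were lower at D2.5. Rasgrf1 (45.0 to 62.7 CPM) and Impact (23.7 to 35.3 CPM) were higher. The higher class sum thus rests on the members called higher, and a sum without them was not taken. The classes were not compared by a test. Over all genes, 21.4% were called higher and 33.4% lower, so the counts of 7 and 10 of 31 members are close to the background. The median size of the change, without its sign, was 1.13 for the members and 1.36 for all genes. With its sign, the median of all genes was -0.51, against -0.13 for the members. Without scaling factors the medians were -1.004 and -0.62, so all age values are read relative to a shift of the whole table of that size. Phlda2, Kcnq1 and Mkrn3 were above the filter only through the embryonic libraries, so they could be called only as lower, and Airn, which did not pass before birth, only as higher.

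**Figure D3:**
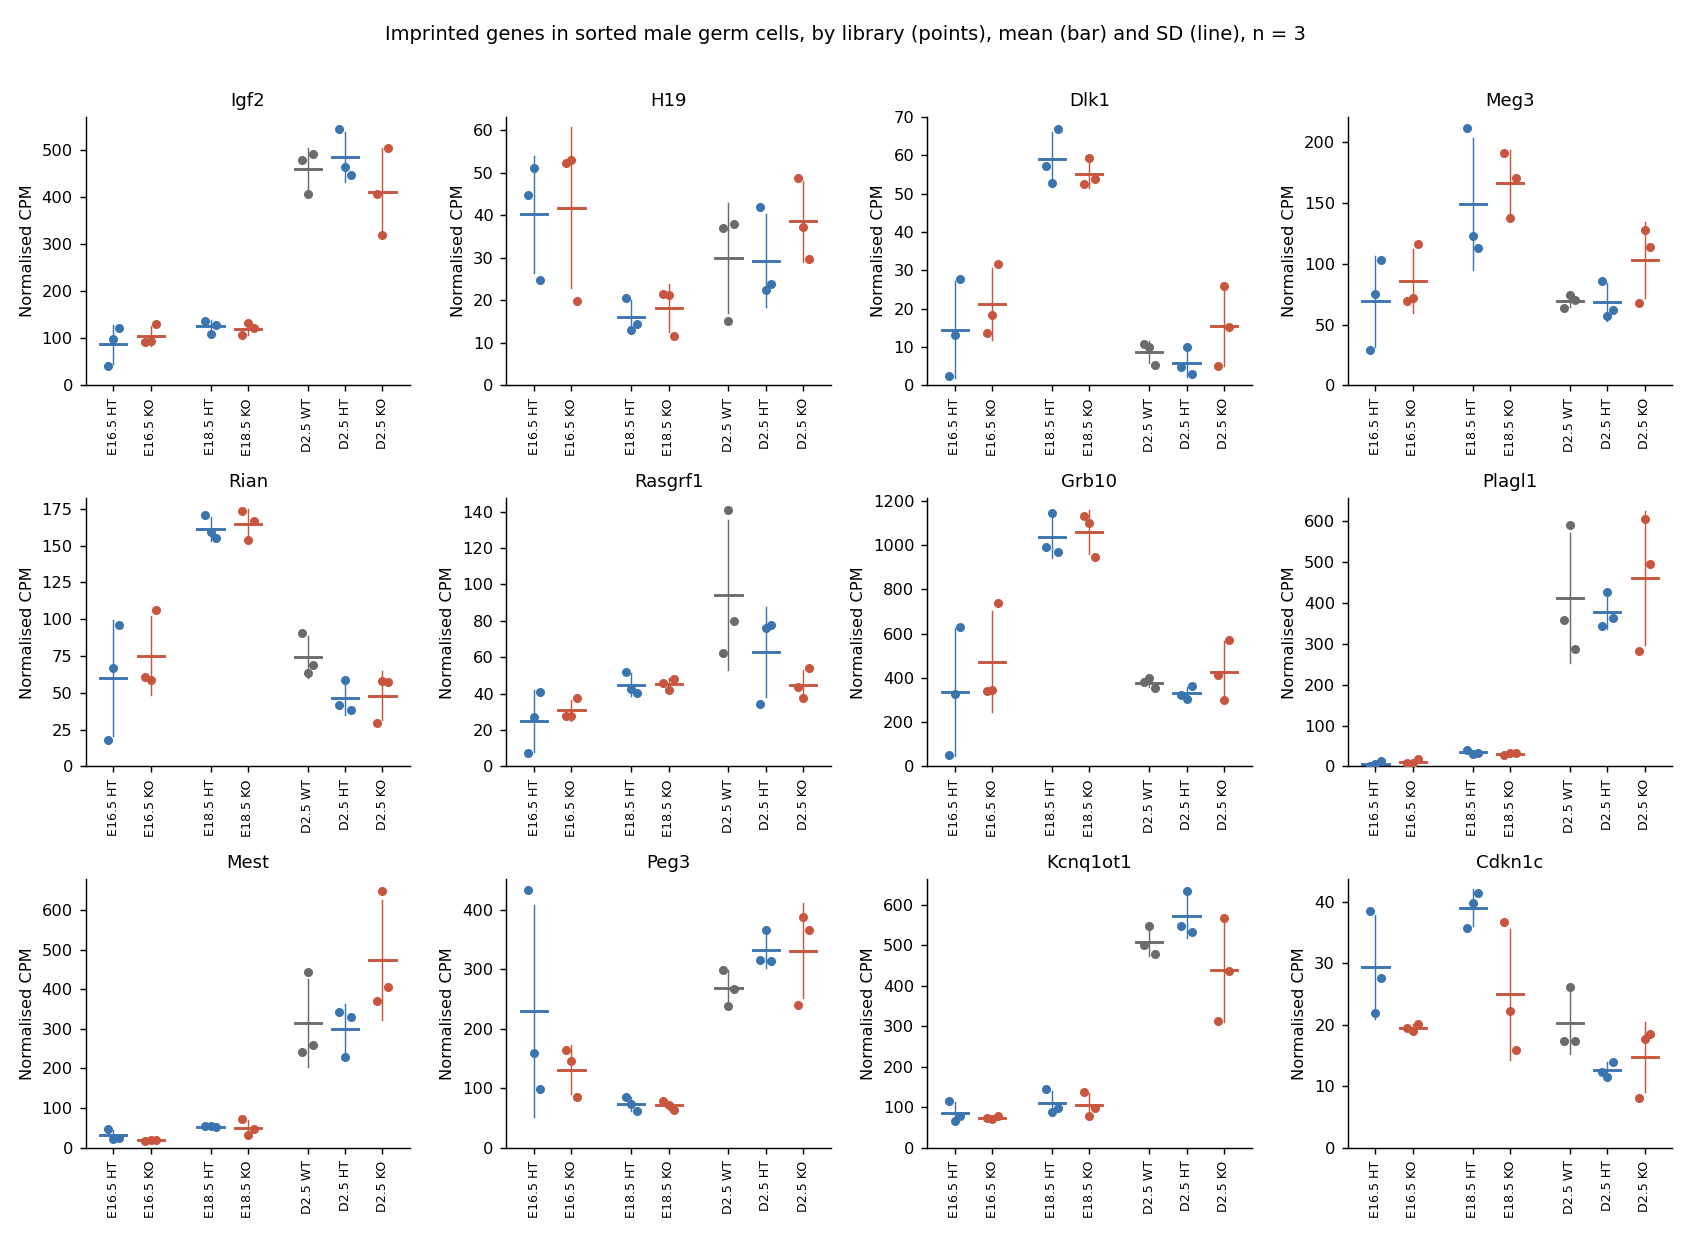
CPM of 12 members (vertical axes, from 0) in each library (points), with the group mean (bar) and SD (line), for HT (blue), KO (red) and WT (grey) libraries. Igf2, Plagl1, Mest, Peg3 and Kcnq1ot1 are higher at D2.5 than at E18.5 in every library, whereas Dlk1, Rian and Grb10 are highest at E18.5, with HT and KO points close together at that age.

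Of the 7 members called higher at D2.5 in HT cells, 5 were among the 18 paternally expressed ones tested and 2 among the 13 maternally expressed ones. Over all genes 21.4% were called higher. Plagl1, which arrests the cell cycle when overexpressed, went from 41.0, 29.7 and 33.3 CPM in E18.5 HT to 344, 427 and 364 CPM in D2.5 HT, which is 3.45 on the log2 scale (SE 0.50, adjusted p = 1.04e-05). Mest went from 54.3, 54.1 and 50.9 CPM to 342, 229 and 330 CPM (2.501, SE 0.30, adjusted p = 1.38e-06). Kcnq1ot1 went from 145, 87.7 and 97.2 CPM to 549, 636 and 533 CPM (2.39, SE 0.27, adjusted p = 4.41e-07). For these 3 genes every D2.5 library was above every E18.5 library. Peg3 rose from 84.9, 74.1 and 61.8 CPM to 314, 366 and 313 CPM (2.17, SE 0.37, adjusted p = 7.65e-05), and Igf2 from 138, 110 and 129 CPM to 546, 465 and 447 CPM (1.95, SE 0.28, adjusted p = 9.29e-06). Ube3a, a ubiquitin ligase that is maternally expressed in neurons, rose from 45.0, 42.6 and 36.2 CPM to 126, 167 and 129 CPM (1.77, SE 0.25, adjusted p = 8.23e-06), again with no overlap. Gnas rose by 1.67 (SE 0.39, adjusted p = 0.00136). Exons of Ube3a overlap those of Snhg14 on the other strand, those of Gnas overlap Nespas, and those of Igf2 overlap Igf2os. No source states that strand was used in counting, so reads over the shared exons may belong to either gene of a pair.

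Phlda2, Mirg, Dlk1, Mkrn3, Rian and Kcnq1 fell over the same interval, of which Phlda2, Mkrn3 and Kcnq1 could be called only as lower. Phlda2, a placental growth regulator, went from 7.87, 11.4 and 15.6 CPM in E18.5 HT to 0.545, 0 and 0.684 CPM at D2.5, that is to 3, 0 and 4 counts (fitted log2 fold change -4.82, SE 0.94, adjusted p = 0.00028). Mirg went from 31.6, 34.1 and 41.8 CPM to 0.727, 0 and 7.69 CPM (-3.67, SE 0.82, adjusted p = 0.00094), and without D2.5 library 3, the highest of that age, the value was -6.59. Dlk1 went from 57.2, 52.9 and 66.8 CPM to 4.72, 10.03 and 2.91 CPM (-3.31, SE 0.66, adjusted p = 0.000323). In all of them the D2.5 libraries lay below the E18.5 libraries. Mkrn3, a ring finger gene of the Prader-Willi region, fell from 6.74, 4.47 and 4.41 CPM to 1.27, 0.76 and 0.513 CPM (-2.604, SE 0.85, adjusted p = 0.0139), and Rian from 171, 159 and 155 CPM to 41.6, 58.9 and 38.3 CPM (-1.80, SE 0.40, adjusted p = 0.00096). Kcnq1, a potassium channel gene, fell from 25, 27 and 44 counts to 0, 10 and 1 counts (-2.18, adjusted p = 0.0487), and without D2.5 library 2 the value was -4.68.

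Grb10 (-1.65), Cdkn1c (-1.62), Meg3 (-1.13) and Nnat (-0.98) also fell, with adjusted p values of 0.000886 to 0.0395. Meg3, which shares its domain with Dlk1, Rian and Mirg, thus moved in their direction, while Igf2 rose in its own domain and H19 went from 20.6, 13.05 and 14.5 CPM to 42.0, 22.3 and 23.8 CPM (0.87, SE 0.40, adjusted p = 0.0691). Rasgrf1 went from 52.1, 42.6 and 40.3 CPM to 34.3, 76.0 and 77.9 CPM (0.48, SE 0.41, adjusted p = 0.325). The 12 other tested members that did not pass had values between -0.92 (Ndn) and 1.08 (Airn). Of the 17 called members, 13 passed in each of the 18 fits that left out 1 library. Kcnq1 and Nnat were lost in most of these fits, Nnat being at -0.56 without the first D2.5 HT library. Meg3 was lost without the first E18.5 HT library (-0.71, adjusted p = 0.124) or D2.5 HT library 2 or 3, and Mkrn3 without the first E18.5 HT library (-2.29, adjusted p = 0.0525) or the third D2.5 HT library.

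KO cells were compared across the same ages in a contrast added after the data were seen. There 18 of 31 members passed, 10 higher and 8 lower (21.1% and 34.2% of all genes). In the 18 fits that left out 1 library, 12 of these 18 members passed each time; Airn, Ascl2, Dlk1, Grb10, H19 and Mkrn3 were lost in at least 1, Dlk1 without the first D2.5 KO library, and H19, Ascl2 and Airn also did not pass without scaling factors. Without the first D2.5 KO library Ascl2 went from 1.84 to 0.59, Mkrn3 from -2.11 to -4.16 and Phlda2 from -4.18 to a fitted -9.37, and without the third Mkrn3 was at -1.39. The 17 members called in HT cells had the same sign in KO cells, and 15 of them were called there too, which is 88.2% of the HT calls and 83.3% of the KO calls. Over all genes 78.7% of the HT calls were called in KO cells in the same direction, so the members' share is close to the background. Plagl1 rose by 3.87 (SE 0.51, adjusted p = 3.36e-06) and Mest by 3.23 (SE 0.31, adjusted p = 7.77e-08), and Dlk1 fell by 1.85 (SE 0.61, adjusted p = 0.0151). Nnat fell by 3.34 (SE 0.44, adjusted p = 3.4e-06), from 24.5, 18.3 and 20.6 CPM to 1.26, 2.23 and 2.77 CPM. Cdkn1c and Meg3 passed only in HT cells and H19, Ascl2 and Airn only in KO cells, and the differences between genotypes for these 5 had adjusted p values of 0.597 to 0.977. Airn rose in KO cells from 0.482, 0.361 and 0.56 CPM to 0.902, 2.04 and 4.06 CPM (2.28, SE 0.88, adjusted p = 0.0328). It was above the filter only through the D2.5 libraries, so it could be called only as higher. Phlda2, Kcnq1 and Mkrn3, also counted above, could be called only as lower.

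**Figure D4:**
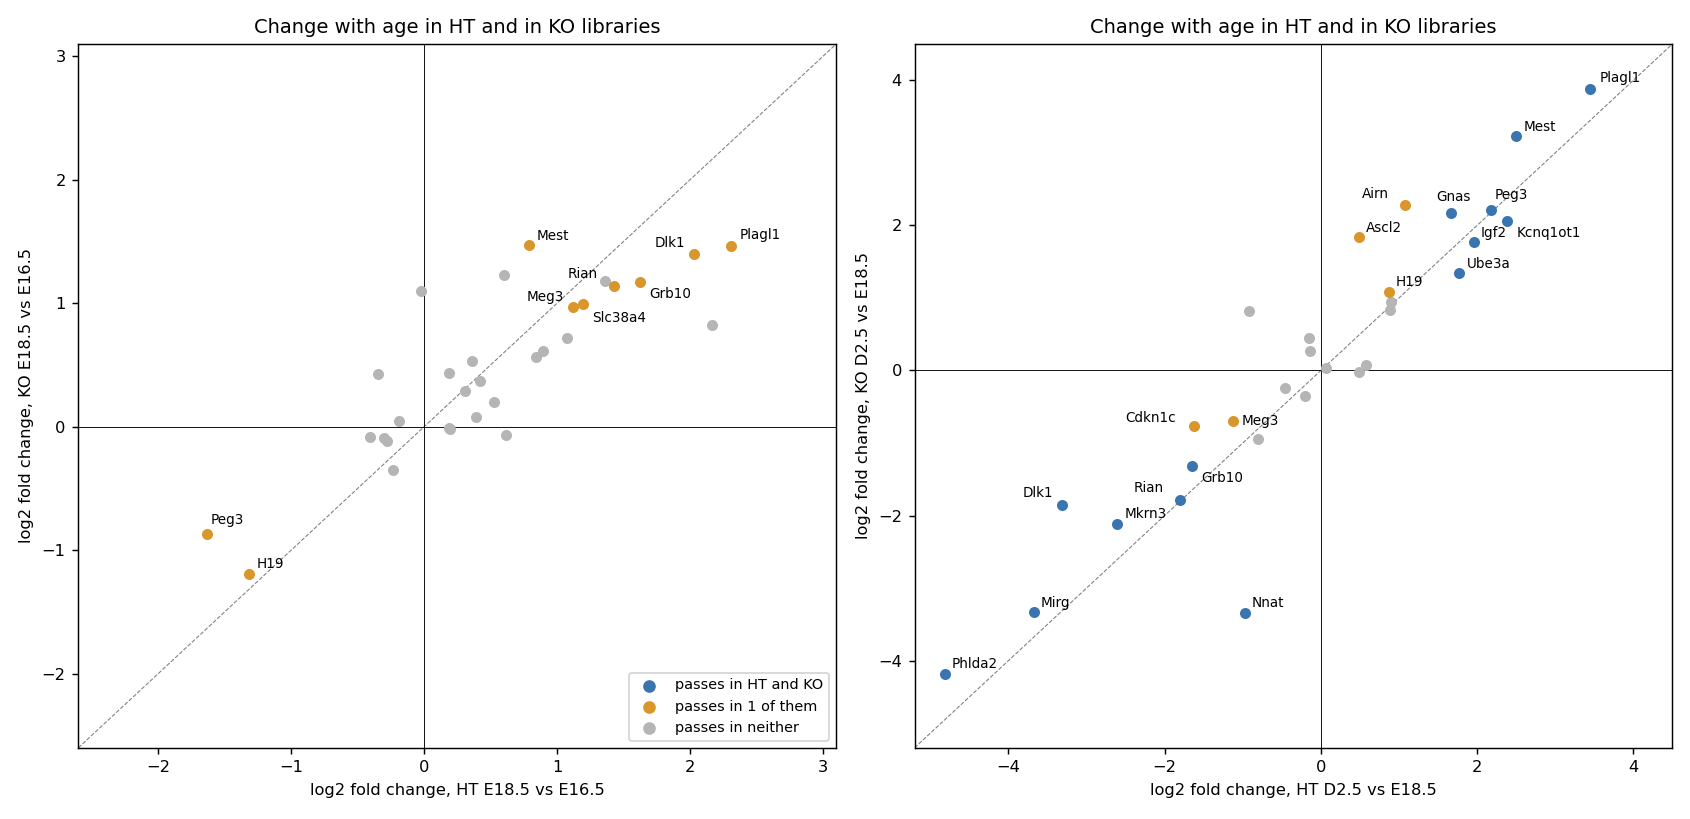
Log2 fold change with age in HT libraries (horizontal axes) against that in KO libraries (vertical axes) for each member tested, from E16.5 to E18.5 (left) and from E18.5 to D2.5 (right), with the dashed line marking equal values. Kcnq1 is left out on the right, having 0, 1 and 0 counts in the D2.5 KO libraries. On the right 14 of the plotted members pass in both genotypes and all of these lie in the same direction in each; on the left the members that pass do so in a single genotype.

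From E16.5 to E18.5, 8 of 31 members passed in HT cells, 6 higher and 2 lower (4.81% and 8.39% of all genes), and the call depended on single libraries. The members' median was 0.42, beside 0.11 over all genes, and 0.77 beside 0.43 without scaling factors. Plagl1 went from 0.971, 5.70 and 14.4 CPM to 41.0, 29.7 and 33.3 CPM (2.31, SE 0.50, adjusted p = 0.00759). Dlk1 went from 2.52, 13.3 and 27.7 CPM to 57.2, 52.9 and 66.8 CPM (2.03, SE 0.61, adjusted p = 0.035), and Grb10 from 52.5, 326 and 631 CPM to 993, 1143 and 969 CPM (1.63, SE 0.49, adjusted p = 0.0362). Every E18.5 library lay above every E16.5 library for these genes, and the lowest value in each was the E16.5 library that stood apart. Rian (1.43), the amino acid transporter gene Slc38a4 (1.20) and Meg3 (1.12) rose with adjusted p values of 0.0253 to 0.0448. Peg3 fell from 432, 159 and 98.1 CPM to 84.9, 74.1 and 61.8 CPM (-1.63, SE 0.37, adjusted p = 0.00952), and H19 from 44.8, 51.1 and 24.7 CPM to 20.6, 13.05 and 14.5 CPM (-1.31, SE 0.40, adjusted p = 0.0358).

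Without the first E16.5 HT library 2 members passed, Plagl1 and Mest, and the change was 1.06 for Grb10, 0.69 for Meg3, -0.87 for Peg3 and 0.93 for Rian. Meg3 was at 0.72 without the first E18.5 HT library. Plagl1 was the member called in every fit that left out 1 library. Without the second E16.5 HT library, or without any of the E18.5 HT libraries in turn, 2 passed, Peg3 and Plagl1. Without scaling factors 7 members rose and 1 fell, Mest passing in place of H19 (-0.96, adjusted p = 0.0937). In KO cells 1 of 31 members passed from E16.5 to E18.5 (4.54% of all genes), Mest, which went from 17.9, 18 and 19.1 CPM to 72.0, 32.2 and 46.7 CPM (1.47, SE 0.30, adjusted p = 0.013). The 8 members called in HT cells had the same sign in KO cells, where Grb10 went from 339, 344 and 737 CPM to 1130, 1101 and 946 CPM (1.18, SE 0.49, adjusted p = 0.151) and Dlk1 from 13.6, 18.3 and 31.6 CPM to 52.4, 59.4 and 53.8 CPM (1.40, SE 0.60, adjusted p = 0.164). The Mest call was lost without KO library 1 or 2 at E16.5 or KO library 1 at E18.5, and 8 members passed when the first E16.5 HT library was left out of the same fit.

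Among 35 further imprinted genes listed for comparison, 0 passed in KO against HT at E16.5 (29 tested), E18.5 (29) or D2.5 (25), with 0, 1 and 2 at an unadjusted p under 0.05 by edgeR. Over all genes 0.00618%, 2.14% and 0.153% passed at these ages, and 1.17%, 8.12% and 7.21% had an unadjusted p under 0.05. The counts of 0 are thus close to the background. The largest fitted values were those of Calcr (0.82) and Slc22a3 (0.77) at E16.5 and of Dcn (0.66) and Osbpl5 (0.61) at E18.5. At D2.5 they were those of Slc22a3, with 0, 0 and 0.342 CPM in HT and 3.43, 1.67 and 0 CPM in KO, and Calcr, with 0.363, 0.608 and 0.171 CPM in HT and 1.80, 5.38 and 0 CPM in KO, both near the floor. Zdbf2, named here after its values were seen because its control region is also methylated on the paternal copy, had a KO effect of -0.02 at E18.5 (SE 0.16) and rose with age from 233, 200 and 157 CPM to 336, 584 and 387 CPM in HT cells (1.15, SE 0.22, adjusted p = 0.000239). With age in HT cells from E18.5 to D2.5, 7 of 29 rose and 15 fell (21.4% and 33.4% of all genes), among them the transporter gene Slc22a18, from 10.4, 13.05 and 14.3 CPM to 0 in all 3 libraries, Th, to 0 as well, Slc22a3, and Asb4 (-4.58, SE 0.69, adjusted p = 1.75e-05). From E16.5 to E18.5, Nap1l4 alone passed, as lower (-0.96, SE 0.20, adjusted p = 0.00637), where 8.39% of all genes were called lower.

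Of 26 genes that set, keep or remove imprints, 0 were called in KO against HT at each age, with 0, 1 and 1 at an unadjusted p under 0.05 by edgeR. The shares over all genes were 0.00618%, 2.14% and 0.153% called, and 1.17%, 8.12% and 7.21% unadjusted, so the counts of 0 are close to the background. The largest fitted values were those of Tet1 (-1.57, SE 0.82) and Dppa3 (-1.26, SE 0.95) at E16.5, where the HT library that stood apart held 944 CPM of Tet1 and 3163 CPM of Dppa3, and of Dppa3 (-0.60) and Ctcfl (-0.42) at E18.5. At D2.5 they were those of Dppa3, near the floor with 0, 0.304 and 1.54 CPM in HT and 4.33, 10.02 and 0.737 CPM in KO, and of Zfp57 (0.76, SE 0.69). They changed with age: in HT cells 14 rose and 8 fell from E18.5 to D2.5, beside 21.4% and 33.4% of all genes. Dnmt3l, the cofactor of de novo methylation, fell from 145, 210 and 201 CPM to 3.27, 0.152 and 8.37 CPM (-5.57, SE 0.70, adjusted p = 1.82e-06), and Dppa3, which protects methylation in the zygote, fell from 11.3, 23.04 and 98.7 CPM to those values (fitted -6.14, SE 1.28, adjusted p = 0.00049). The chromatin remodeller gene Hells (3.05) and the H3K36 methyltransferase gene Setd2 (2.81) rose. From E16.5 to E18.5, 1 rose, the demethylation enzyme gene Tet3 (1.17), and 8 fell, among them Dppa3 (-5.06), Tet1 (-2.73), Arid4a (-1.24) and Uhrf1 (-1.17), beside 4.81% higher and 8.39% lower over all genes.

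Of 17 tested genes of the piRNA pathway, 0 passed in KO against HT at E16.5 (0.00618% of all genes) and D2.5 (0.153%). At an unadjusted p under 0.05 by edgeR there were 0 (1.17% of all genes) and 2 (7.21%). At E18.5, 1 passed (2.14% of all genes). That was Gtsf1, a zinc finger partner of PIWI proteins, at 88.7, 107 and 99.5 CPM in HT and 42.8, 49.8 and 40.3 CPM in KO (-1.15, SE 0.15, adjusted p = 0.000554), with no overlap. The largest fitted values elsewhere were 0.47 for Henmt1 at E16.5 (SE 0.37) and -1.001 for Tdrd12 at D2.5 (SE 0.31), neither of which passed.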

How the data were processed

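RNA of sorted germ cells was isolated with the PicoPure kit and amplified with NuGEN Ovation kits, per the labels' protocols, and sequenced as 21 libraries. The values used are raw counts per gene as the authors deposited them, in 3 tables, 1 for each age, with 24495 gene rows and 1217 repeat rows; the repeat rows and the separate repeat family tables were not used. STAR, featureCounts, edgeR and Bowtie and the build mm9 are named per the submitters' processing notes, while no source used here gives their versions, their roles or the use of strand in counting.

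Gene counts were scaled by TMM and filtered at a minimum count of 10 and a total of 15. Groups were tested with edgeR 4.0.16 (R 4.3.3; two-sided quasi-likelihood test, Benjamini-Hochberg adjustment over all genes tested, threshold 0.05). E16.5 and E18.5 were each fitted on 6 libraries, D2.5 on 9, and ages and differences of the KO effect on the 18 HT and KO libraries. The standard error was taken from the fold change and its F statistic. Tables of different ages were counted separately, so an age comparison cannot be told apart from a difference between tables or runs. P-values measure the spread between libraries. The fits were tested on simulated data.

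The members and all gene lists were chosen with earlier results of these data known. Named were Tex15 and every member by role. Full values were meant for called members and for H19, Igf2, Meg3, Dlk1, Rian, Mirg and Rasgrf1, but not every library value of these is printed. For the change with age up to 6 called members in each direction were taken by size. Of each other list up to 4 called genes (otherwise the 2 largest) were named. Alternatives were RLE scaling, no scaling factors, no filter, a minimum count of 30, DESeq2 1.42.0, limma-voom 3.58.1, a replicate block and leaving out each library. Promoter, miRNA and exon annotations were used for GRCm38 and matched by symbol. Figures were drawn with matplotlib 3.10.9.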

Additional observations from a re-analysis of the deposited data

How the results depend on the processing

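The count of 0 members called between genotypes held in each comparison under RLE scaling, no scaling factors, no filter, a minimum count of 30, DESeq2, limma-voom and the replicate block. Leaving out 1 library at a time gave 0 to 1 members at E18.5, the 1 being Cdkn1c without KO library 1. The difference in KO effect between D2.5 and E18.5 was called for 1 member with DESeq2 (Nnat) and for 0 to 1 in leave-one-out fits. From E16.5 to E18.5 the HT count ranged from 2 to 10 in leave-one-out fits, and the KO count of 1 became 4 with DESeq2, 6 with limma-voom, 3 with the replicate block and 0 to 8 in leave-one-out fits; the cause was not tested. Deviations of same-numbered HT and KO libraries correlated at 0.52, -0.04 and 0.70 at E16.5, 0.19, 0.12 and 0.08 at E18.5 and within 0.04 of 0 at D2.5; not every pair passed 0.1 at any age, and at E18.5 HT library 3 correlated best with KO library 2, so the numbers were not taken as pairs. With the replicate block 18 members passed from E18.5 to D2.5 in HT cells and 8 from E16.5 to E18.5.

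Small KO effects changed sign. Rian at D2.5 was -0.0102 with limma-voom, and at E18.5 Rian was -0.0111 and Rasgrf1 -0.0245 without scaling factors. In leave-one-out fits at E16.5 H19 ranged from -0.18 to 0.39, Igf2 from -0.0517 to 0.62, Meg3 from -0.0401 to 0.75, Mirg from -0.14 to 0.80, Rasgrf1 from -0.13 to 0.87 and Rian from -0.10 to 0.86. At E18.5 Dlk1 ranged from -0.18 to 0.0095, Igf2 from -0.16 to 0.0219, Meg3 from -0.0065 to 0.49, Rasgrf1 from -0.0561 to 0.13 and Rian from -0.005 to 0.0686. At D2.5 Mirg ranged from -0.62 to 3.12 and Rian from -0.10 to 0.32 against HT, and Mirg from -0.17 to 2.40 against WT. Magel2, Peg12, Airn, Mirg and Phlda2 held 0 to a few counts in some D2.5 libraries, where fitted values rest on those few counts.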
